A study of Homo sapiens with 18 samples.

Results

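The levels of 10 genes that set or guard the epithelial state were followed in 3 lung cancer cell lines in which the kinase SYK was depleted. They were the repressors SNAI1, SNAI2, ZEB1 and ZEB2, the splicing factors ESRP1 and ESRP2, and the epithelial transcription factors GRHL1, GRHL2, OVOL1 and OVOL2. They were chosen by name, and all 10 were found among the 58302 genes in the deposited tables. RNA was sequenced from EBC-1 cells, which carry a MET amplification, and from PC-9 and HCC827 cells, which carry a deletion in EGFR exon 19. The 6 groups were cells of each line with a stable shRNA against SYK (shSYK) or with the negative control (nc), and each was sequenced in 3 libraries. The knockdown rested on 1 shRNA clone delivered by lentivirus, and nothing states whether the libraries of a group came from separate cultures, so p-values measure only the spread between these libraries, which may be technical.

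In epithelial-mesenchymal transition (EMT), cells lose cell-cell junctions and polarity and take on features of mesenchymal cells. The SNAI and ZEB proteins bind E-boxes, short DNA words such as CAGGTG, and repress epithelial genes such as CDH1, which encodes E-cadherin. GRHL2 and OVOL2 are known to oppose this, in part by repressing ZEB1, and the ESRP proteins direct epithelial patterns of splicing. Levels are given as FPKM, the fragments on a gene scaled by its length and by a denominator per library. The product of FPKM and gene length rose in whole steps within a library, which gave back the number of reads behind each value. These read numbers and their intervals cover counting error only.

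The libraries held 7920099 to 15729103 reads on genes. The targeted gene SYK was at 52.3% (EBC-1), 32.1% (PC-9) and 32.9% (HCC827) of its nc level, and no shSYK library reached the nc libraries of its line. The epithelial markers EPCAM, KRT8, KRT18 and CDH1 were present in all 3 lines. Markers of leukocytes, endothelium and fibroblasts (9 genes) summed to 2.05 to 3.05 FPKM per library in EBC-1, most of it COL1A1, with 4 of the 9 genes at 0 reads in all 6 libraries. In PC-9 they summed to 20.6 to 25.6 FPKM in nc and 13.1 to 15.7 in shSYK, and the endothelial adhesion gene PECAM1 fell from 13.4 to 4.98 FPKM while CDH5 stayed measurable at 2.42 and 2.38. In HCC827 they summed to 1.95 to 2.65 FPKM in nc and 5.23 to 6.69 in shSYK, and the B cell gene CD79A rose from 1.18 to 4.24 FPKM on 15 to 87 reads per library. The defining leukocyte gene PTPRC had at most 1 read in any HCC827 library and CD3E had 0. Per library, PTPRC had 0 to 1 reads in EBC-1 and 0 to 14 in PC-9, and CD3E had 0 to 2 and 0 to 3. COL1A1 stood at 6.83 FPKM in nc and 6.69 in shSYK cells of PC-9. Whether these markers play a part in the results below was not tested.

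The E-box is the word through which these repressors act, and ZEB1 was a gene whose reads rose in EBC-1 and HCC827, so a start window of ZEB1 is shown. Windows of 250 bases before and 50 after a gene start were taken from RefSeq (GRCh38.p14). Those of 3 of the 10 genes are reported, with 7 windows for ZEB1 and 1 each for ZEB2 and GRHL1. Windows of the other regulators, where the source holds them, are not reported here. The word CAGGTG and its reverse complement CACCTG were searched, so that both strands were covered. The window shown, chr10:31318966-31319265 on the plus strand, lies inside the ZEB1 gene as the tables place it (chromosome 10, 31318495 to 31529814) and inside ZEB1-AS1 on the opposite strand. Capitals mark the matches, which begin 242 and 85 bases before the start site and 33 bases after it.
ZEB1 start window: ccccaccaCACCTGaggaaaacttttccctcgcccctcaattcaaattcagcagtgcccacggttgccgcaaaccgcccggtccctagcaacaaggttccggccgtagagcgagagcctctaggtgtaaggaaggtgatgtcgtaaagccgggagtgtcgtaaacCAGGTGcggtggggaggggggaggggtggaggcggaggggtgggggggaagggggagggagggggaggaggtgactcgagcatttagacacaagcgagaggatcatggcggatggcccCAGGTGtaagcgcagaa
This window held 3 matches, the most of the 7 ZEB1 windows. Of the 35116 windows of this length in the table, 0.635% held 3 or more and 20.6% held at least 1. These shares are per window, and do not allow for showing the fullest of 7. Of the other ZEB1 windows, the one at chr10:31318167-31318466 held 1 match. The windows of ZEB2 and GRHL1 held none, which says only that these letters are not in them.

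The control cells of the 3 lines differed in which regulators they carried. ESRP1 and ESRP2 were the highest of the 10 genes in the nc cells of every line, the GRHL and OVOL genes lay below them in a mix particular to each line, SNAI1 and SNAI2 were low and ZEB1 and ZEB2 were close to 0. In EBC-1 nc cells the order of the mean levels was ESRP2 (42.4 ± 1.21 FPKM, SD, n = 3), ESRP1 (35.1 ± 5.81), GRHL2 (16.9 ± 0.326), OVOL2 (12.5 ± 1.2), SNAI1 (4.05 ± 0.457), SNAI2 (1.75 ± 0.236), OVOL1 (1.17 ± 0.214), GRHL1 (0.561 ± 0.0273), ZEB1 (0.0421 ± 0.0127) and ZEB2 at 0. Only ESRP2 and ESRP1 were neighbours whose libraries overlapped. In PC-9 nc cells ESRP1 (37.4 ± 2.84) stood above ESRP2 (17.1 ± 3.05), followed by GRHL1 (10.7 ± 1.55), GRHL2 (8.84 ± 1.26) and OVOL1 (8.84 ± 2.5), 3 genes whose libraries overlapped with those of their neighbour. OVOL2 (3.31 ± 0.85), SNAI1 (2.51 ± 0.251) and SNAI2 (0.906 ± 0.215) came next, and ZEB1 (0.0146 ± 0.0149) and ZEB2 (0.00256 ± 0.00444) overlapped at the bottom. In HCC827 nc cells the order was ESRP1 (42.4 ± 0.591), ESRP2 (37.9 ± 1.15), OVOL2 (14.3 ± 0.789), GRHL2 (9.9 ± 0.424), OVOL1 (3.98 ± 0.258), GRHL1 (2.7 ± 0.203), SNAI1 (2.5 ± 0.172), SNAI2 (0.743 ± 0.448), ZEB1 (0.0879 ± 0.0345) and ZEB2 (0.00298 ± 0.0028). There, only GRHL1 and SNAI1 were neighbours that overlapped.

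GRHL1 and OVOL1 set the lines apart most. GRHL1, a grainyhead-like factor of epithelial cells, was 19.0-fold higher in PC-9 than in EBC-1 nc cells, with HCC827 between them and no overlap between any of the lines. OVOL1, a zinc finger factor that keeps epithelial cells in their state, was 7.58-fold higher in PC-9 than in EBC-1, again with HCC827 between. Its paralogue OVOL2 went the other way, 4.33-fold higher in HCC827 than in PC-9, with EBC-1 overlapping HCC827. The levels were compared with limma on log2(FPKM + 1) in a fit of all 18 libraries, over the 14636 genes with a mean of at least 1 FPKM in at least 1 line, with Benjamini-Hochberg adjustment over those genes. The 8 regulators that entered this fit, all but ZEB1 and ZEB2, had 17 of 24 differences between lines past an adjusted p of 0.05. Of all genes tested, 73.8% differed between EBC-1 and PC-9, 72.8% between EBC-1 and HCC827 and 68.4% between PC-9 and HCC827, so the regulators' share is near that of any gene. Differences in level between lines cannot be told apart from differences in how the libraries of each line were made.

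The remaining regulators spanned narrower ranges. ESRP2 was 2.48-fold higher in EBC-1 than in PC-9, SNAI2 2.35-fold higher in EBC-1 than in HCC827, GRHL2 1.91-fold higher in EBC-1 than in PC-9, and SNAI1 1.62-fold higher in EBC-1 than in HCC827. For SNAI1, SNAI2 and GRHL2, every EBC-1 nc library lay above those of PC-9 and HCC827, which overlapped each other. ESRP1 was the most even, with a ratio of 1.21 between HCC827 and EBC-1. Its difference of -0.28 between EBC-1 and HCC827 on the log2(FPKM + 1) scale (limma adjusted p = 0.0135) turned to 0.04 when the libraries were rescaled to an equal sum, a step that moved the median of all genes in this contrast from 0 to 0.25. ZEB1 was listed highest in HCC827 and lowest in PC-9, a ratio of 6.01 that rests on 24 and 4 reads in the 3 nc libraries of each. The libraries of these lines did not overlap, while those of EBC-1 overlapped both.

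**Figure D1:**
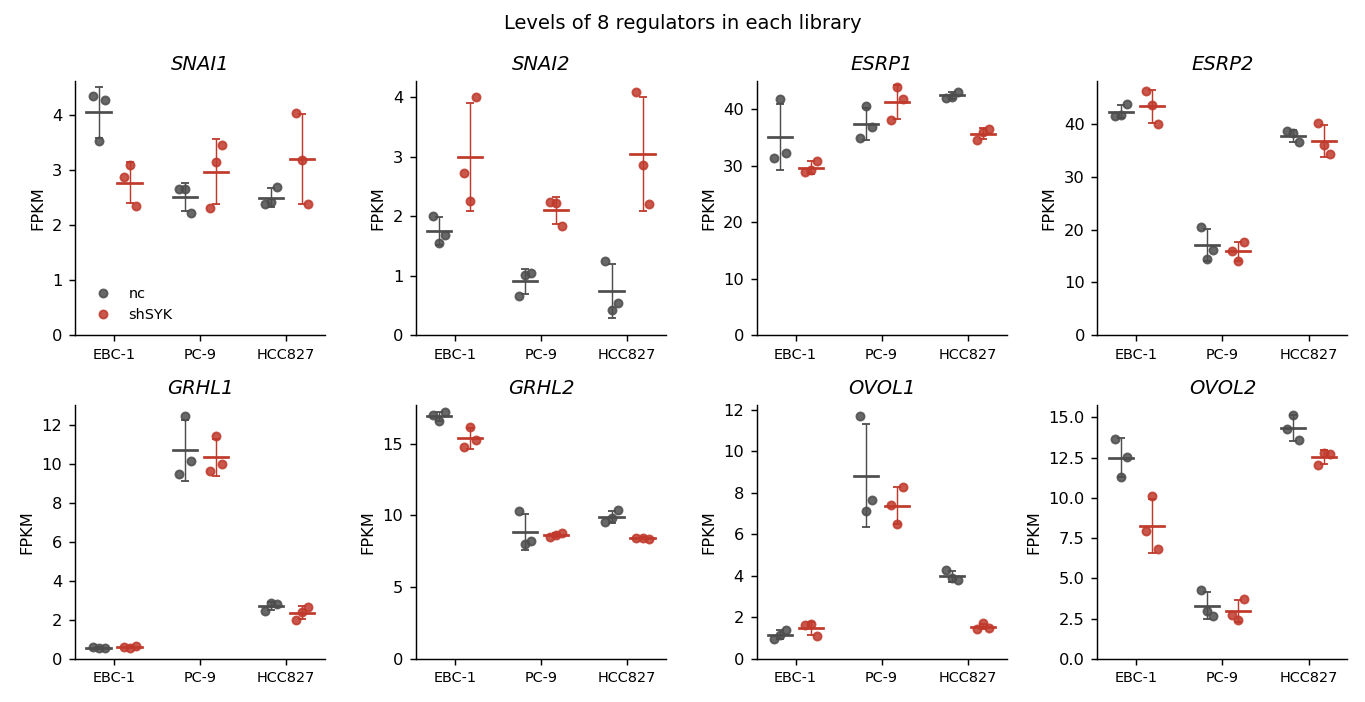
FPKM (vertical axes, linear, from 0) of 8 regulators in each library of EBC-1, PC-9 and HCC827. Points are libraries, horizontal bars the mean and whiskers the SD of 3 libraries, grey for nc and red for shSYK. SNAI2 in shSYK lies above nc in all 3 lines, and OVOL1 in HCC827 lies between 1.46 and 1.71 FPKM in shSYK against 3.79 to 4.28 in nc.

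The comparison of shSYK with nc asked which regulators moved when SYK was depleted. SNAI2 was higher in shSYK cells of all 3 lines, with every shSYK library above every nc library of its line. Beyond SNAI2, the lines differed in which regulators passed the test. In EBC-1, SNAI1 and OVOL2 fell. In HCC827, OVOL1, ESRP1, GRHL2 and OVOL2 fell. In PC-9, the line with the least alike pair of replicate libraries, no other regulator passed. ZEB1 was too low for this test, and its reads increased in EBC-1 and HCC827 by limma-voom. A difference between lines in the effect on ZEB1 was not tested in the main fit of all 18 libraries. From the alternative fits it is not reported here. Each line was tested by itself with limma on log2(FPKM + 1) over genes with a mean of at least 1 FPKM in its 6 libraries, and a gene with an adjusted p under 0.05 over all genes tested was counted as changed.

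These counts stand in very different surroundings. In EBC-1, 7 regulators were tested, of which 1 rose and 2 fell, while 23.1% of all genes tested rose and 21.6% fell. In PC-9, 8 were tested and 1 rose, against 0.678% of all genes that rose and 1.41% that fell. In HCC827, 8 were tested, 1 rose and 4 fell, against 17.2% and 20.7% of all genes. Groups that did not overlap were seen for 5 of the 7 regulators tested (EBC-1), 1 of 8 (PC-9) and 5 of 8 (HCC827), where 56.9%, 23.7% and 52.3% of all genes tested did so. An exact permutation test of 3 libraries against 3 cannot go below p = 0.1. With 1 library left out, the count of regulators called was 0 without nc replicate 1 and 1 without nc replicate 3 in EBC-1, 0 without nc replicate 3 or any shSYK replicate in PC-9, and 3 without shSYK replicate 2 in HCC827. When each library was freed of trends of its levels with the length and GC content of genes, the 3 calls in EBC-1 were lost and ESRP1, ESRP2 and OVOL1 passed in their place. Rescaling to an equal sum moved the median log2 fold change of all genes in EBC-1 from 0.01 to 0.12, and the values below are relative to the unscaled tables.

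**Figure D2:**
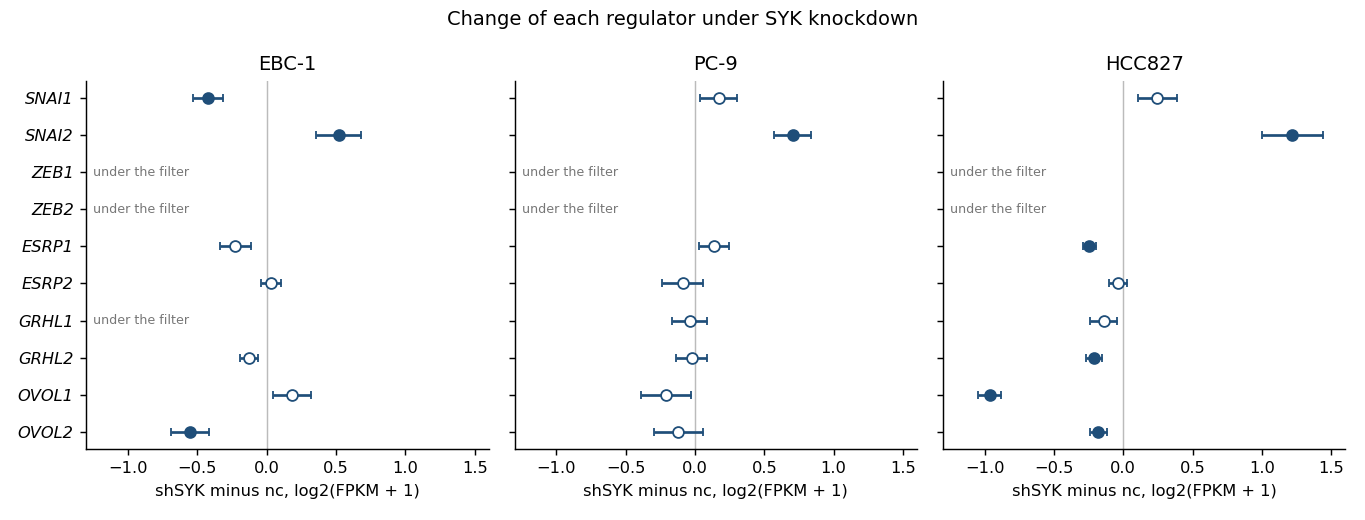
Difference between shSYK and nc (horizontal axis, log2(FPKM + 1) scale) for the 10 regulators in each cell line, with the standard error as bars. Filled points passed an adjusted p of 0.05 over all genes tested, open points did not, and regulators under the filter of a mean of 1 FPKM carry no point. SNAI2 is the only regulator filled in all 3 panels.

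SNAI2 encodes Slug, a zinc finger repressor of CDH1. In EBC-1, the nc libraries stood at 2.01, 1.54 and 1.69 FPKM and the shSYK libraries at 2.72, 2.25 and 4 FPKM. The groups did not overlap, and shSYK replicate 3 was the highest. This was a difference of 0.52 on the log2(FPKM + 1) scale (standard error 0.16, limma adjusted p = 0.0348). The call was close to the threshold. It was lost without nc replicate 1, 2 or 3 or without shSYK replicate 1 or 3 (adjusted p = 0.0541, 0.0804, 0.0888, 0.0642 and 0.0733), with a difference of 0.34 without shSYK replicate 3, and the adjusted p ran from 0.012 to 0.115 over 15 alternatives. It was also lost without a filter (adjusted p = 0.115) and with the length and GC trends removed (0.35, adjusted p = 0.102).

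In PC-9, SNAI2 stood at 0.658, 1.01 and 1.04 FPKM in nc and at 2.24, 2.23 and 1.83 FPKM in shSYK, on 12 to 26 and 41 to 62 reads per library. The shSYK level was 232% of nc. The difference of 0.71 (standard error 0.13, limma adjusted p = 0.048) was at the threshold, and 6 of 15 alternatives passed it, with adjusted p from 0.0156 to 0.236. The call was lost without nc replicate 3 or without shSYK replicate 1, 2 or 3 (adjusted p = 0.175, 0.236, 0.226 and 0.152). The direction was the same under all 15, and the difference was 1.15 with a pseudocount of 0.1. In HCC827, the nc libraries had 1.26, 0.425 and 0.547 FPKM and the shSYK libraries 4.09, 2.86 and 2.20 FPKM. Each group had 1 library above the other 2, and even so the highest nc library was below the lowest shSYK library. SNAI2 rose to 411% of nc, by 1.22 (standard error 0.22, limma adjusted p = 0.00507), and passed under all 15 alternatives, with adjusted p from 7.11e-05 to 0.0271. Because its nc level was near 1 FPKM, the size depends on the scale and was 2.27 with limma-voom on recovered reads, a fit of the reads with weights for their precision.

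SNAI1 encodes Snail, the close relative of Slug. In EBC-1 it moved against SNAI2, from 4.34, 3.52 and 4.27 FPKM in nc to 2.87, 3.09 and 2.35 FPKM in shSYK. All shSYK libraries were below all nc libraries. SNAI1 fell by 0.42 on the log2(FPKM + 1) scale (standard error 0.11, limma adjusted p = 0.0168). The adjusted p ran from 0.00888 to 0.226 over 15 alternatives. The call was lost without nc replicate 1 or 3 (adjusted p = 0.0635 and 0.0598), without a filter (adjusted p = 0.0573) and when the length and GC trends were removed, which left -0.12 (adjusted p = 0.226). In PC-9 SNAI1 stood at 2.65, 2.65 and 2.22 FPKM in nc and 2.32, 3.15 and 3.45 FPKM in shSYK, and in HCC827 at 2.38, 2.42 and 2.70 against 4.04, 3.18 and 2.39 FPKM. Both pairs of groups overlapped, and the differences of 0.17 (standard error 0.14, limma adjusted p = 0.624) and 0.25 (standard error 0.14, limma adjusted p = 0.203) did not pass. In HCC827 it passed without shSYK replicate 3 (0.39, limma adjusted p = 0.0403), the 1 alternative of 15 that passed, over a range from 0.0403 to 0.514.

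Set as a share of the summed FPKM of SNAI1 and SNAI2, SNAI2 made up 30.2% ± 1.64 (SD, n = 3) in EBC-1 nc and 51.2% ± 10.7 in shSYK cells. The shares were 26.5% ± 6.15 and 41.8% ± 7.24 in PC-9, and 22.1% ± 10.8 and 48.5% ± 1.56 in HCC827. In each line, the lowest shSYK share was above the highest nc share, by the least in PC-9, where the nearest libraries had 32.0% and 34.7%. The share gives the mix of both genes and not the change of either.

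ZEB1 encodes a zinc finger and homeodomain repressor of epithelial genes, and was under the filter of 1 FPKM in all 3 lines. In HCC827, 3, 11 and 10 reads lay on it in the nc libraries and 51, 25 and 37 in the shSYK libraries. The lowest shSYK library held more reads than any nc library. The summed reads were 24 and 113, a depth-adjusted ratio of 4.44 (95% exact interval 2.84 to 7.22), and the mean level went from 0.0879 to 0.418 FPKM. With limma-voom on recovered reads, over genes with a mean of at least 10 reads, the log2 fold change was 2.16 (standard error 0.43, limma adjusted p = 0.000607), where 23.9% of all genes tested that way rose. Leaving out each library in turn, an alternative chosen after seeing the data, gave 1.89 to 2.45 with adjusted p from 0.000236 to 0.00379. On log2(FPKM + 1) without a filter the difference was 0.38 (limma adjusted p = 0.0511).

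In EBC-1, ZEB1 had 5, 6 and 3 reads in nc and 23, 7 and 17 in shSYK, 14 against 47 in all, a ratio of 3.08 (95% exact interval 1.67 to 6.06). The groups were 1 read apart at their nearest. With limma-voom the log2 fold change was 1.56 (standard error 0.47, limma adjusted p = 0.0146), against 28.9% of all genes that rose in that fit, and 0.11 on log2(FPKM + 1) without a filter (limma adjusted p = 0.16). Without nc replicate 3 the limma-voom adjusted p was 0.0632, the highest of 4 libraries left out, and without shSYK replicate 1 or 3 ZEB1 was under the minimum of 10 reads. In PC-9, 4 and 5 reads in all lay on ZEB1 in nc and shSYK cells, a ratio of 1.07 (95% exact interval 0.231 to 5.41), an interval that spans the ratios of both other lines.

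The antisense gene ZEB1-AS1 overlaps the start of ZEB1, and whether the counting used strand is not given in the sources used here, so reads of the pair cannot be told apart in the overlap. In HCC827, ZEB1-AS1 also rose, from 82 to 183 summed reads (0.57 on the log2(FPKM + 1) scale, limma adjusted p = 0.0138). In EBC-1 its summed reads were 149 in nc and 157 in shSYK, with no call because it was under the filter. ZEB2, the paralogue of ZEB1, had 0 reads in all 6 EBC-1 libraries, which allows up to 3 reads over a group, or 0.00314 FPKM in nc. In PC-9 it had 2 reads, both in nc replicate 3. In HCC827, 1, 1 and 0 reads in nc stood against 12, 5 and 3 in shSYK. The ratio of 9.43 had a 95% exact interval from 2.29 to 83.2, and ZEB2 at 0.0260 FPKM in shSYK cells remained below ZEB1.

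**Figure D3:**
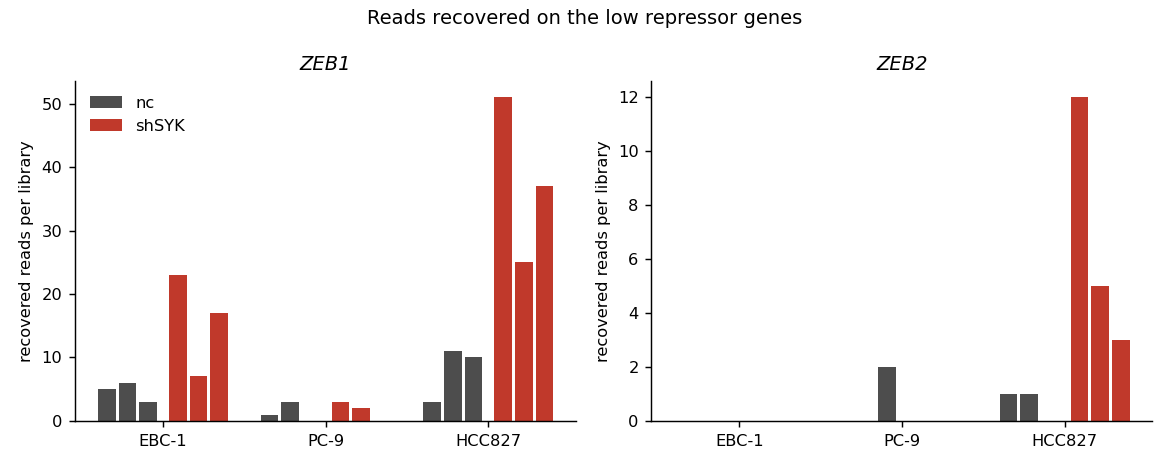
Reads recovered on ZEB1 and ZEB2 (vertical axes, linear, from 0, different in the 2 panels) in each library, grey for nc and red for shSYK, with 1 bar per library. In HCC827, ZEB1 had 3 to 11 reads in nc and 25 to 51 in shSYK, and ZEB2 had 0 to 1 and 3 to 12.

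ESRP1 and ESRP2 encode RNA-binding proteins that keep epithelial splice forms. ESRP1 fell in HCC827, where the nc libraries had 42.0, 42.2 and 43.1 FPKM and the shSYK libraries 34.5, 36 and 36.5 FPKM. The groups were far apart against their spread, though the change was modest, 84.0% of nc. It fell by 0.24 on the log2(FPKM + 1) scale (standard error 0.049, limma adjusted p = 0.00715), and 14 of 15 alternatives passed, the exception being the fit of all 18 libraries (adjusted p = 0.0686, in a range from 0.00159 to 0.0686). In EBC-1 ESRP1 had 31.3, 41.8 and 32.2 FPKM in nc and 28.8, 29.2 and 30.9 in shSYK. These groups did not overlap either, but nc replicate 2 lay far above the others and the difference of -0.23 did not pass (standard error 0.11, limma adjusted p = 0.134). It was -0.10 without nc replicate 2 and -0.10 with equal sums, and -0.43 with the length and GC trends removed, where it passed (limma adjusted p = 0.00544). For PC-9 the values were 35.0, 40.5 and 36.8 against 38.0, 43.9 and 41.8 FPKM, which overlapped (0.14, standard error 0.11, limma adjusted p = 0.631).

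ESRP2 did not pass in any line. Its means were 42.4 and 43.4 FPKM in EBC-1, 17.1 and 15.9 in PC-9, and 37.9 and 36.9 in HCC827, for nc and shSYK, with overlapping libraries in each. The differences were 0.03 (standard error 0.073), -0.09 (standard error 0.15) and -0.04 (standard error 0.068), with limma adjusted p of 0.76, 0.848 and 0.688. After removal of the length and GC trends ESRP2 rose in EBC-1 by 0.21 (limma adjusted p = 0.0199), with adjusted p up to 0.907 over the 15 alternatives. The end of ESRP2 overlaps NFATC3 on the opposite strand, which had 102 to 504 reads per library. ESRP1 made up 45.1% ± 4.23 of the summed ESRP level in EBC-1 nc, 68.7% ± 5.29 in PC-9 nc and 52.8% ± 1.11 in HCC827 nc cells. Levels per gene do not show which splice forms were made.

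GRHL2, an activator of junction genes such as CDH1, fell in HCC827 from 9.54, 9.79 and 10.4 FPKM to 8.44, 8.44 and 8.34 FPKM. The shSYK libraries were nearly equal and lay below all nc libraries. It fell by 0.21 on the log2(FPKM + 1) scale (standard error 0.055, limma adjusted p = 0.0198). Of 15 alternatives 9 passed, with adjusted p from 0.0194 to 0.0684, and those that missed include leaving out nc replicate 3 (adjusted p = 0.056) or shSYK replicate 2 or 3 (adjusted p = 0.0553 and 0.059). In EBC-1 GRHL2 went from 17.0, 16.5 and 17.2 to 14.7, 16.2 and 15.2 FPKM, groups apart by a narrow gap, with a difference of -0.13 that did not pass (standard error 0.064, limma adjusted p = 0.137). GRHL2 in PC-9 had 10.3, 8.02 and 8.21 against 8.52, 8.60 and 8.76 FPKM (-0.02, standard error 0.11, limma adjusted p = 0.956), with nc replicate 1 above the rest.

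GRHL1 was not called in any line. In PC-9, where it was highest, the libraries had 9.46, 12.4 and 10.2 FPKM in nc and 9.64, 11.4 and 9.96 in shSYK. The groups covered the same range, with a difference of -0.04 (standard error 0.13, limma adjusted p = 0.932). In HCC827 GRHL1 had 2.47, 2.85 and 2.79 against 2.01, 2.42 and 2.66 FPKM (-0.14, standard error 0.096, limma adjusted p = 0.286). In EBC-1 it was under the filter, at 0.561 and 0.604 FPKM on 50 to 78 reads per library. GRHL1 made up 3.21% ± 0.156 of the summed GRHL1 and GRHL2 level in EBC-1 nc, 54.7% ± 6.47 in PC-9 nc and 21.4% ± 1 in HCC827 nc cells, and 3.79% ± 0.523, 54.4% ± 2.24 and 21.9% ± 2.48 in shSYK cells.

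OVOL1 showed the largest fall of the tested regulators in HCC827. Its nc libraries had 4.28, 3.89 and 3.79 FPKM and its shSYK libraries 1.46, 1.71 and 1.5 FPKM, on 119 to 176 and 56 to 70 reads. The lowest nc library was more than 2 FPKM above the highest shSYK library. OVOL1 fell to 39.0% of nc, by 0.96 on the log2(FPKM + 1) scale (standard error 0.081, limma adjusted p = 0.000276), and passed under all 15 alternatives, with values from -0.78 to -1.3 and adjusted p from 4.33e-06 to 0.00259. In EBC-1 OVOL1 had 0.961, 1.15 and 1.39 FPKM in nc and 1.62, 1.69 and 1.09 in shSYK, overlapping groups with a difference of 0.18 (standard error 0.14, limma adjusted p = 0.316). With the length and GC trends removed it was 0.42 and passed (limma adjusted p = 0.0261), and it was 0.42 with limma-voom (adjusted p = 0.125). The line with most OVOL1, PC-9, had 11.7, 7.15 and 7.65 against 7.41, 6.48 and 8.27 FPKM, where nc replicate 1 stood above the rest (-0.21, standard error 0.18, limma adjusted p = 0.661).

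OVOL2, the paralogue of OVOL1, is also known as a repressor of ZEB1. In EBC-1 it went from 13.7, 11.3 and 12.6 FPKM to 7.94, 10.1 and 6.79 FPKM, with every shSYK library below every nc library. It fell to 66.2% of nc, by 0.55 (standard error 0.13, limma adjusted p = 0.0133), and 12 of 15 alternatives passed, with adjusted p from 0.00561 to 0.0772. Those that missed were no filter, leaving out nc replicate 1 (adjusted p = 0.0515) and removal of the length and GC trends, which left -0.28 (adjusted p = 0.0772). In HCC827 it had 14.3, 15.1 and 13.6 against 12.1, 12.8 and 12.8 FPKM, and fell by 0.18 (standard error 0.06, limma adjusted p = 0.0484) at the edge of the threshold. There 2 of 15 alternatives passed, over adjusted p from 0.0401 to 0.835, it turned to 0.02 with the length and GC trends removed, and it missed when any library but nc replicate 3 was left out (adjusted p from 0.0892 to 0.132). In PC-9 OVOL2 had 4.28, 2.97 and 2.69 against 2.75, 2.40 and 3.71 FPKM (-0.12, standard error 0.18, limma adjusted p = 0.82). OVOL2 overlaps SNX5 on the same strand and MGME1 on the opposite strand, which had 577 to 1584 and 212 to 633 reads per library, and neither passed the test in any line.

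The mix of the OVOL genes moved in opposite directions in EBC-1 and HCC827. OVOL1 made up 21.8% ± 1.28 of the summed OVOL level in HCC827 nc and 11.0% ± 0.673 in shSYK cells, against 8.6% ± 1.79 and 15.0% ± 1.7 in EBC-1. Neither pair of groups overlapped. In PC-9 the share was 72.6% ± 1.73 in nc and 71.6% ± 2.28 in shSYK cells, with overlap.

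**Figure D4:**
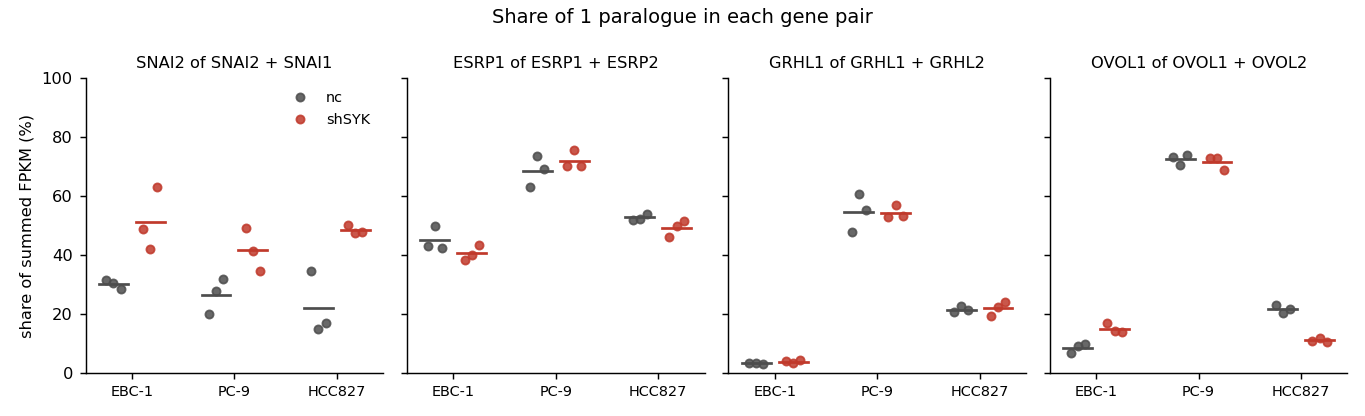
Share (%, vertical axis from 0 to 100) of SNAI2, ESRP1, GRHL1 and OVOL1 in the summed FPKM of their gene pair, for each library, with points for libraries and horizontal bars for means, grey for nc and red for shSYK. The SNAI2 share is higher in shSYK in all 3 lines, the OVOL1 share goes from 21.8% to 11.0% in HCC827, and the GRHL1 share runs from 3.21% to 54.7% between the nc cells of the lines.

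Whether the lines responded differently was tested as the difference of their shSYK effects, again with limma over the 18 libraries together. Of 24 differences (8 regulators, 3 pairs of lines), 4 passed, all of SNAI1 or OVOL1. The effect on OVOL1 was 1.15 higher in EBC-1 than in HCC827, with a standard error of 0.21 (limma adjusted p = 0.00102), and 0.76 higher in PC-9 than in HCC827, with the same standard error (limma adjusted p = 0.0351). The effect on SNAI1 was lower in EBC-1 than in HCC827, by -0.67 (SE 0.19, limma adjusted p = 0.0236), and lower than in PC-9, by -0.59 (standard error 0.19, limma adjusted p = 0.0452). The effect on SNAI2 differed by -0.70 between EBC-1 and HCC827 without passing (standard error 0.27, limma adjusted p = 0.0834), and by -1.43 with limma-voom (adjusted p = 0.0395). Over 24 alternatives its adjusted p ran from 0.0248 to 0.201. For ESRP1 the differences were -0.36 between EBC-1 and PC-9 (limma adjusted p = 0.0668) and 0.38 between PC-9 and HCC827 (limma adjusted p = 0.0957), and for OVOL2 the effect in EBC-1 was not shown to differ from that in HCC827 (-0.37, standard error 0.21, limma adjusted p = 0.227). Of all genes tested, 18.3% differed between EBC-1 and PC-9, 20.6% between EBC-1 and HCC827 and 7.63% between PC-9 and HCC827. Leaving out 1 library moved the count of 4 to between 2 and 7, with 7 without PC-9 nc replicate 1, and the difference of OVOL1 between PC-9 and HCC827 was lost in 10 of 18 such fits (adjusted p from 0.0513 to 0.0946). The differences of SNAI1 were lost in 5 of 18 (EBC-1 against HCC827, adjusted p from 0.0513 to 0.0631) and in 12 of 18 (EBC-1 against PC-9, adjusted p from 0.053 to 0.115), while that of OVOL1 between EBC-1 and HCC827 passed in all 18, at 1.08 to 1.26.

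The genes around the regulators were followed by lists of other EMT transcription factors (16 genes), other epithelial factors (15), epithelial target genes (24) and mesenchymal genes (14). In HCC827, other EMT factors rose (5 of 9 tested, 0 fell, median log2 fold change 0.41) and epithelial factors (8 of 10) and targets (17 of 24) fell, with 1 of each rising and medians of -0.31 and -0.39, where the median of all genes was -0.01. In EBC-1, other EMT factors went both ways (2 of 10 rose, 4 fell), and 5 of 8 mesenchymal genes rose and 1 fell (median 0.46). More epithelial factors (4 of 10) and targets (11 of 24) fell than rose (1 and 3), with medians of -0.22 and -0.24. The median of all genes in EBC-1 was 0.01. In PC-9, 5 genes passed over these lists and the marker lists together, 1 of them the endothelial marker PECAM1. This count became 1 without shSYK replicate 1, 2 without nc replicate 3 or shSYK replicate 2 or 3, 8 without nc replicate 1 and 10 without nc replicate 2. The counts are read against the shares of all genes given above, and no test was made of any list as a whole.

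Among the other EMT factors in HCC827, FOXC1, a forkhead factor, rose from 1.85 to 3.11 FPKM (0.53, limma adjusted p = 0.00345), and FOSL1, the AP-1 subunit FRA1, from 178 to 236 (0.41, limma adjusted p = 0.00666). In EBC-1, 2 of 10 rose and 4 fell. HMGA2, a chromatin factor, rose from 2.5 to 3.82 FPKM (0.46, limma adjusted p = 0.00289) and FOXC1 from 6.62 to 8.79 (0.36, limma adjusted p = 0.0109), while SOX4 fell from 33.1 to 22.2 (-0.57, limma adjusted p = 0.00692). FOSL1 was high in EBC-1, at 546 and 496 FPKM, and did not pass (-0.13, limma adjusted p = 0.406). In PC-9, 0 of 11 passed.

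ELF3, an ETS factor of epithelia, fell in both EBC-1 and HCC827, from 32.1 to 13.2 FPKM (-1.22, limma adjusted p = 0.000182) and from 62.9 to 27.5 (-1.16, limma adjusted p = 0.000347). FOXA1 and TFAP2A, named here after their values were seen, also fell in both lines, FOXA1 by 0.59 and 0.27 (limma adjusted p = 0.00582 and 0.0173) and TFAP2A by 0.31 and 0.50 (limma adjusted p = 0.018 and 0.000869). The relative of ELF3, EHF, went opposite ways, up in EBC-1 from 22.5 to 28.8 FPKM (0.36, limma adjusted p = 0.0307) and down in HCC827 from 16.1 to 9.42 (-0.73, limma adjusted p = 0.00737). FOXA2, a forkhead factor of airway epithelium, fell in EBC-1 from 21.5 to 8.71 FPKM (-1.22, limma adjusted p = 0.00103), where 1 of 10 epithelial factors rose and 4 fell (median -0.22). KLF4 was the 1 epithelial factor that rose in HCC827, from 7.31 to 9.44 FPKM (0.33, limma adjusted p = 0.0039). In PC-9, KLF5 fell from 23.4 to 13.8 FPKM (-0.72, limma adjusted p = 0.0161), and 1 rose and 1 fell of the 11 tested.

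All 24 epithelial targets passed the filter in each line. In HCC827, CDH1 fell from 140 to 103 FPKM (-0.44, limma adjusted p = 0.00314), TJP3, a tight junction scaffold, from 16.6 to 5.38 (-1.44, limma adjusted p = 0.000391), and LLGL2, a polarity gene known as a target of ZEB1, from 23.1 to 13.7 (-0.72, limma adjusted p = 0.000239). In EBC-1, 11 of 24 fell and 3 rose (median -0.24). CDH1 fell from 128 to 104 FPKM (-0.30, limma adjusted p = 0.00913), CLDN3 from 15.2 to 8.49 (-0.76, limma adjusted p = 0.00539) and TJP3 from 12 to 7.74 (-0.58, limma adjusted p = 0.00467), while the desmosome genes DSP and PKP3 rose, DSP from 7.4 to 12.5 (0.68, limma adjusted p = 0.0011) and PKP3 from 61.4 to 87 (0.50, limma adjusted p = 0.0161). In PC-9, 0 of 24 passed, with CDH1 at 39.5 and 32.2 FPKM (-0.28, standard error 0.10, limma adjusted p = 0.244). CDH1 changed by a like amount in EBC-1, where the standard error was 0.065, so a missed call in PC-9 does not show a lack of change. EPCAM did not pass in any line.

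Mesenchymal genes were few, with 8, 5 and 4 of 14 tested in EBC-1, PC-9 and HCC827. Of these, 5, 2 and 3 rose and 1, 0 and 1 fell. VIM, the intermediate filament vimentin, rose in all 3 lines, from 3.65 to 8.62 FPKM in EBC-1, 0.857 to 2.76 in PC-9 and 1.81 to 15.2 in HCC827 (1.04, 1.02 and 2.53, limma adjusted p = 0.00033, 0.00765 and 8.76e-05). CDH2, which encodes N-cadherin, rose in EBC-1 from 9.9 to 14.5 FPKM (0.51, limma adjusted p = 0.00173) and had 0 to 4 reads per library in PC-9 and 0 to 2 in HCC827. TNC, a matrix protein, rose in EBC-1 from 31.1 to 60.5 FPKM (0.94, limma adjusted p = 0.000119) and fell in HCC827 from 107 to 69.4 (-0.63, limma adjusted p = 0.00183). AXL, a receptor kinase, fell in EBC-1 from 64.6 to 44 FPKM (-0.54, limma adjusted p = 0.0012) and rose in HCC827 from 0.648 to 1.63 on 21 to 105 reads per library (0.68, limma adjusted p = 0.012). FN1, fibronectin, rose in HCC827 from 8.56 to 11.3 FPKM (0.37, limma adjusted p = 0.0159) and did not pass in EBC-1 (0.09, limma adjusted p = 0.508) or PC-9 (0.46, limma adjusted p = 0.0615).

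**Figure D5:**
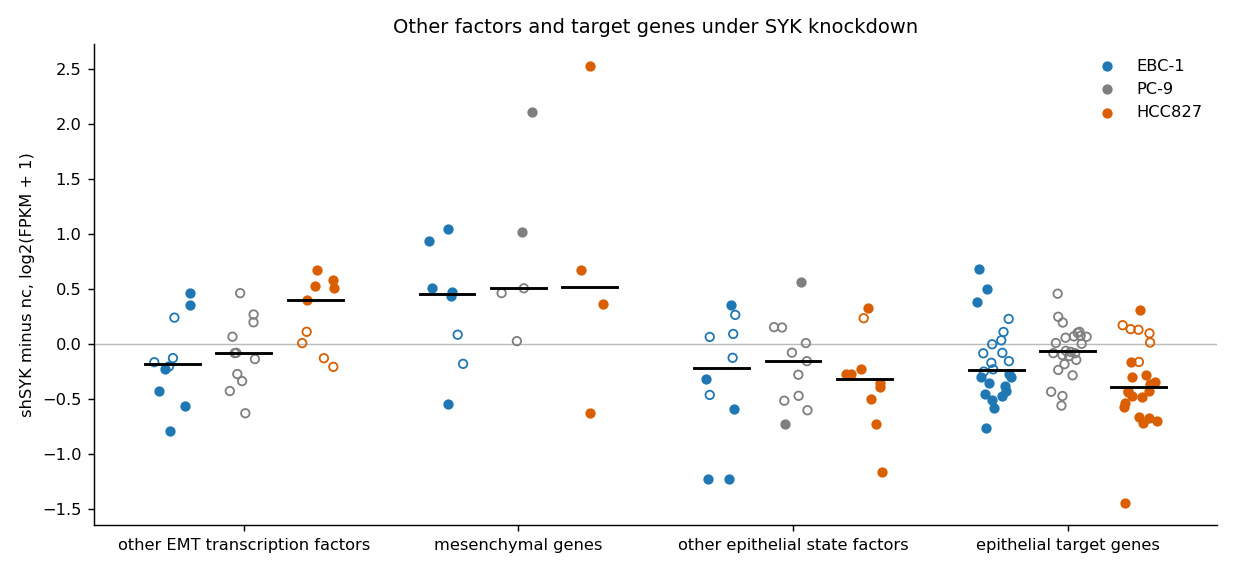
Difference between shSYK and nc (vertical axis, log2(FPKM + 1) scale) for each tested gene of 4 lists, coloured by cell line, with filled points for genes past an adjusted p of 0.05, open points for the others and black bars for the median. In HCC827, 17 of 24 epithelial targets fell and in PC-9, 0 of 24 passed.

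The genes whose levels were most like those of ZEB1 and GRHL2 over the 18 libraries are given as a description, since libraries of a line and group share their source. For ZEB1 they were FRMD6 (Pearson r = 0.899), MPP5 (0.894), FNBP1 (0.893), MIR503HG (0.874) and AC002524.1 (0.872), among 8611 genes with a mean of at least 5 FPKM in a line. For GRHL2 they were STX1A (0.991), TECPR1 (0.989), ST14 (0.988), GANAB (0.987) and SIGIRR (0.987), among 8610. ST14, which encodes the membrane protease matriptase, is also in the list of epithelial targets.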

How the data were processed

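The authors deposited 1 table per cell line, with the FPKM of 58302 Ensembl genes in each library, computed before deposit from reads per gene, the gene length in the table and a denominator per library. The methods state TRIzol extraction, Illumina HiSeq sequencing and alignment to hg38. The submitters' processing notes name CASAVA and HISAT2 without versions, and the counting program, its use of strand and the annotation are not given in the sources used here. The gene positions fit hg38. Reads were recovered as FPKM times gene length divided by the step of each library, and 100% of values above 0 were whole within 0.01. Replicate libraries were compared, and no pair was a copy. The pairs least alike were in PC-9 nc. There the chi-square of the reads per degree of freedom was 38.7 for replicates 1 and 2 and 14.3 for 1 and 3. In the other groups it ran from 2.11 to 12.2.

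Tests used limma 3.58.1 in R 4.3.3 on log2(FPKM + 1), with a variance trend, two-sided, on genes with a mean of at least 1 FPKM, at a Benjamini-Hochberg adjusted p under 0.05 over all genes tested. Each line was fitted on its 6 libraries, and differences between lines on all 18. The scripts were tested on simulated data. Low genes are given by reads with exact 95% intervals and a floor of 3 reads per group. Motifs and figures were made in Python 3.11.15 with pandas 2.3.3, scipy 1.17.1 and matplotlib 3.10.9.

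The 10 regulators and the gene lists were chosen with earlier results of these data known. Named in the text are the 10 regulators, SYK, VIM, CDH1, CDH2, EPCAM, FN1, FOSL1, and per list and line up to 2 called genes with the largest rise and 2 with the largest fall at a mean of at least 2 FPKM. Some genes that this rule names are not reported here. The genes PTPRC, CD3E, CDH5 and COL1A1 of the marker list and the genes overlapping ZEB1, ESRP2 and OVOL2 were added after their values were seen. Alternatives run were no filter, a pseudocount of 0.1, equal sums (TPM), quantile normalization, no variance trend, removal of length and GC trends (lowess, span 0.3), limma-voom on genes with a mean of at least 10 reads, a fit of all libraries, a replicate block and each library left out.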

Additional observations from a re-analysis of the deposited data

Results flagged for a closer look

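For OVOL1 and SNAI1, the response to SYK depletion differed between some pairs of the 3 lines, by a limma test of the difference itself over all 18 libraries. OVOL1 between EBC-1 and PC-9 (limma adjusted p = 0.21) and SNAI1 between PC-9 and HCC827 (limma adjusted p = 0.893) did not pass. For OVOL1, the effect in EBC-1 minus that in HCC827 was 1.15 on the log2(FPKM + 1) scale (limma adjusted p = 0.00102), and the effect in PC-9 minus that in HCC827 was 0.76 (limma adjusted p = 0.0351). For SNAI1, the effect in EBC-1 minus that in HCC827 was -0.67 (limma adjusted p = 0.0236), and the effect in EBC-1 minus that in PC-9 was -0.59 (limma adjusted p = 0.0452). With 1 library left out, OVOL1 stayed past the threshold in 18 of 18 fits for EBC-1 against HCC827 and in 8 of 18 for PC-9 against HCC827, and SNAI1 in 13 of 18 for EBC-1 against HCC827 and 6 of 18 for EBC-1 against PC-9. Of all genes tested, 20.6%, 7.63% and 18.3% differed between EBC-1 and HCC827, PC-9 and HCC827, and EBC-1 and PC-9.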

How the results depend on the processing

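The rise of SNAI2 and the fall of OVOL1 in HCC827 passed under every alternative run. The number of regulators called moved elsewhere. In EBC-1 the main count of 3 became 0 without a filter and 0 to 3 with 1 library left out, and with length and GC trends removed it was again 3 but of other regulators, ESRP1, ESRP2 and OVOL1. In PC-9 the main count of 1, SNAI2, became 0 with a pseudocount of 0.1, no filter, equal sums, limma-voom or the replicate block, and 0 to 1 with 1 library left out. In HCC827 the main count of 5 became 3 with equal sums, 3 with length and GC trends removed, 3 in the fit of all 18 libraries and 3 to 4 with 1 library left out. Of the differences between lines, the main count of 4 became 2 without a filter, 2 with the replicate block and 2 to 7 with 1 library left out. Without a filter and with the block, only OVOL1 between EBC-1 and HCC827 was left of the 4 (limma adjusted p = 0.00308 and 0.0062). The other difference that passed was not among the 4, and with the block it was SNAI2 between EBC-1 and HCC827 (limma adjusted p = 0.0399). The count of listed genes called in PC-9 takes in the marker lists. It was 5 in the main fit, 12 with equal sums, 13 with quantile normalization, 10 with limma-voom and 1 to 10 with 1 library left out. The cause of these moves was not tested.

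Same-numbered nc and shSYK libraries correlated with r from -0.22 to 0.33 in their deviations from the group means, and in no line was every pair above 0.1, so the numbers were not taken as pairs. With the replicate block the regulators called numbered 3, 0 and 4 in EBC-1, PC-9 and HCC827.

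Of 1552 values of single regulators and SYK under alternatives, 37 changed sign, with a lowest limma adjusted p of 0.117 among them. ESRP2 in HCC827 turned to 0.022 with equal sums, 0.027 with quantile normalization, 0.14 with length and GC trends removed and 0.029 with limma-voom, and OVOL2 in HCC827 to 0.024 with length and GC trends removed. With equal sums, the difference of effects of GRHL2 between EBC-1 and PC-9 turned to 0.044 and that of OVOL2 between PC-9 and HCC827 to -0.018 (-0.055 with limma-voom), and the nc differences of ESRP1 between EBC-1 and PC-9 to 0.048 and between EBC-1 and HCC827 to 0.042, of OVOL2 between EBC-1 and HCC827 to 0.12 and of GRHL2 between PC-9 and HCC827 to 0.0055. The nc difference of SNAI1 between PC-9 and HCC827 turned to -0.026 with quantile normalization. With 1 library left out, the sign changed within these ranges: ESRP2 in EBC-1 -0.019 to 0.085, in PC-9 -0.19 to 0.043 and in HCC827 -0.10 to 0.0095, GRHL1 in PC-9 -0.11 to 0.066, GRHL2 in PC-9 -0.084 to 0.078 and OVOL2 in PC-9 -0.25 to 0.034. For differences of effects the ranges were, between EBC-1 and PC-9, ESRP2 -0.013 to 0.22 and GRHL1 -0.028 to 0.15, between EBC-1 and HCC827, ESRP1 -0.057 to 0.15, and between PC-9 and HCC827, SNAI1 -0.22 to 0.064, ESRP2 -0.15 to 0.081 and OVOL2 -0.075 to 0.21. The nc difference of SNAI1 between PC-9 and HCC827 ran from -0.028 to 0.063.

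Over all genes in PC-9, 253 were called in the main fit, 47 without a filter, 490 with equal sums, 505 with quantile normalization, 959 with length and GC trends removed, 521 with limma-voom, 1465 in the fit of all 18 libraries and 7 to 621 with 1 library left out (7 without shSYK replicate 1). With equal sums, the genes called up and down were 4029 and 1895 in EBC-1, against 2876 and 2686 in the main fit, and 2483 and 1903 in HCC827, against 2066 and 2488. ZEB1 and ZEB2 are limited by depth. GRHL1 in EBC-1 was under the filter of 1 FPKM though it had 50 to 78 reads per library. With limma-voom its log2 fold change there was 0.19 (adjusted p = 0.421).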

Other observations

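Several epithelial target genes were lower in shSYK cells of both EBC-1 and HCC827. Of the 24 epithelial target genes, 10 fell in both lines, which is 90.9% of the 11 that fell in EBC-1 and 58.8% of the 17 that fell in HCC827. Over all 10691 genes tested in both lines, 911 fell in both, 39.6% of those that fell in EBC-1 and 40.7% of those that fell in HCC827. Of those 10691 genes, 2303 fell in EBC-1 and 2237 in HCC827, against 11 and 17 of the 24 targets. A larger part of the list than of all genes fell in each line, so these shares of overlap cannot be compared directly. The overlap was described and not tested, and the list was chosen with earlier results of these data known. The genes named here were chosen after their values were seen. They include the claudins CLDN4 (limma log2 fold change -0.43 in EBC-1 and -0.47 in HCC827) and CLDN7 (-0.45 and -0.48), the vesicle traffic gene RAB25 (-0.30 and -0.66), the adaptor subunit AP1M2 (-0.28 and -0.57) and the membrane protease ST14 (-0.38 and -0.42). Of the 10 regulators, OVOL2 was the 1 called lower in both lines, and its call in HCC827 was lost under 13 of 15 alternatives. PKP3 rose in EBC-1 (0.50) and fell in HCC827 (-0.42), so the targets did not all move the same way in both lines.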
